A study of Drosophila melanogaster with 2 samples.

Results

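The SLC5-like sodium/solute co-transporters are membrane proteins that couple the import of a solute to the flow of sodium down its gradient, which the sodium pump maintains. In animals the family carries sugars, vitamins, iodide, choline and short organic acids. SLC5A11, also called cupcake or CG8451, is known from adult flies as a gene of hunger-responsive neurons of the ellipsoid body, where it promotes feeding and acts through the potassium channel KCNQ. CG9657, CG6723 and CG42235 are named rumpel, bumpel and kumpel and are known from ensheathing glia, which wrap the neuropil. CG5687, CG7720, CG2187 and CG32669 are known mainly by their sequence similarity to the family.

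The members were the genes SLC5A11, CG9657, CG6723, CG42235, CG5687, CG7720, CG2187 and CG32669, and every probe set whose gene symbols included one of these names was taken, whatever its signal. This gave 8 genes with 13 probe sets, out of 12585 named genes and 18952 probe sets on the Affymetrix Drosophila 2 GeneChip. CG42235 had 5 probe sets, CG7720 had 2 and each of the other members had 1. In the current annotation CG6723, CG42235, CG7720 and CG2187 lie on chromosome arm 3R, CG5687 on 3L, SLC5A11 on 2L, and CG9657 and CG32669 on the X chromosome.

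The arrays compared Ck1alphaRNAi larvae (Dcg-Gal4 X UAS-Ck1alphaRNAi) with control larvae (Dcg-Gal4 X w1118), to search for further factors of glucose sensing in larvae with high circulating glucose and low food intake. Both genotypes carried Dcg-Gal4, which drives expression in fat body and blood cells, so the hairpin against the kinase gene Ck1alpha was not directed at neurons or glia. Each genotype gave 1 array from 20 pooled whole feeding larvae at the mid-third instar, raised at 25°C and labelled female. The labels give 6 days of culture, while the methods start the Ck1alphaRNAi cultures 1 day before the controls to allow for developmental delay. There was no replicate of either genotype, so neither a test nor a p-value is given, and a difference in stage between the pools cannot be told apart from an effect of the knockdown. Values are MAS5 signals, which are linear intensities and as deposited both arrays had a trimmed mean of 500. Ratios were taken only within a probe set, and the summed signals given for marker lists are compared only between the arrays. The signal of Ck1alpha itself was 2055 after the knockdown and 2665 without it, a ratio of 0.771 in RNA of the whole animal (log2 ratio -0.37). With both arrays brought to the same median signal (median centring), its log2 ratio was -0.12. These arrays thus showed little of the knockdown, and its extent in the fat body was not measured.

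A gene was counted as detected when the mean of its 2 signals was at least 100, which 8686 genes reached. The level of unspecific signal was taken from 17 tag control probe sets, whose targets are not fly genes, and the brightest of them read 53.3 for Ck1alphaRNAi and 33.1 for control. Between probe sets of the same gene, each with a mean signal of at least 100, the log2 ratios had an SD of 0.32 (1.25-fold, over 414 genes). This is the only measure of error that these arrays give, and it leaves out the spread between larvae. Of the 8 members, 7 were detected, and the exception was CG9657. Among the detected members, 1 of 7 was at least 2-fold lower and 1 of 7 at least 2-fold higher in Ck1alphaRNAi larvae. Over all detected genes, 5.8% were at least 2-fold lower and 2.62% at least 2-fold higher. The median log2 ratio was 0.38 for these 7 members, 0.29 for all 8, and -0.01 for all detected genes. The value of 0.38 is that of CG6723, whose control signal was below 100, and over the 6 members with at least 100 on both arrays the median was 0.28. The members did not share a single direction, since 5 had the higher and 2 the lower signal in Ck1alphaRNAi larvae.

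**Figure D1:**
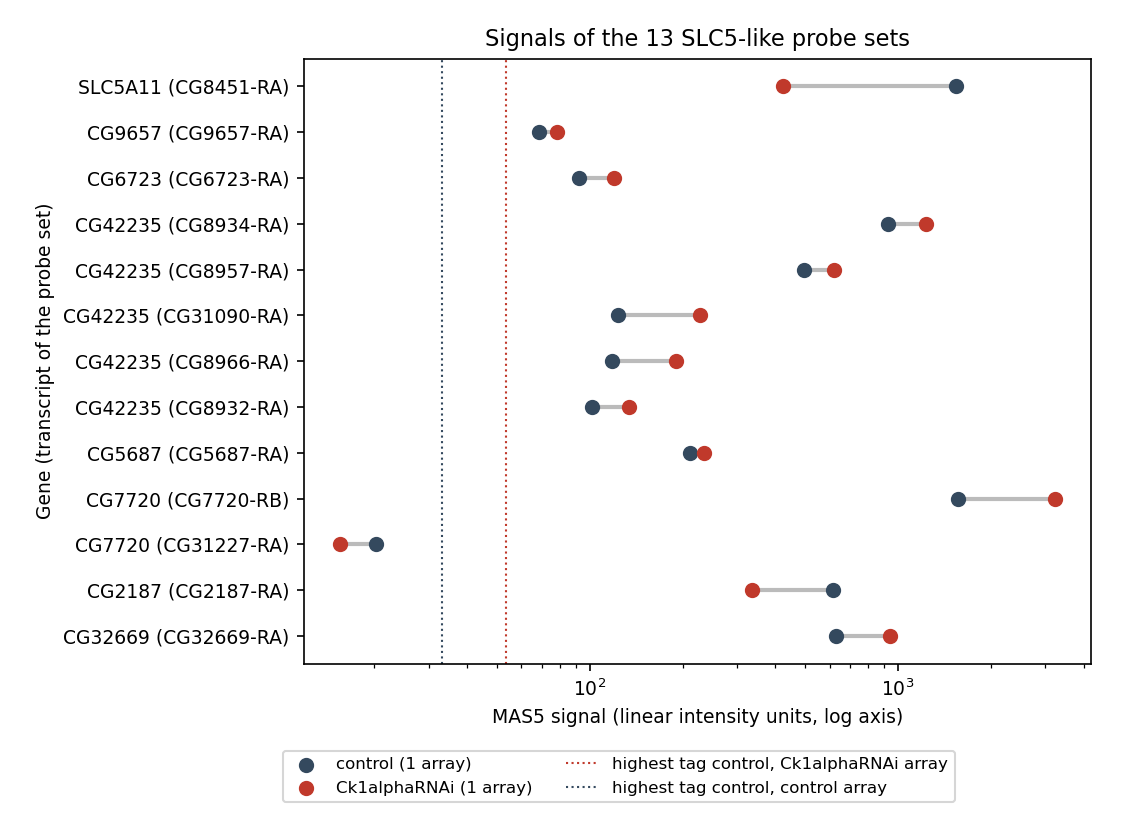
MAS5 signal on a log axis for each of the 13 probe sets of the 8 SLC5-like genes, with 1 point for the Ck1alphaRNAi array and 1 for the control array (20 pooled larvae each) and dotted lines at the brightest tag control of each array. The signal of SLC5A11 lay at 423 against 1545 and that of CG7720-RB at 3241 against 1564, while the second CG7720 probe set lay left of both dotted lines.

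SLC5A11 was the member with the lowest ratio. Its probe set read 423 in Ck1alphaRNAi larvae, against 1545 in the controls. The Ck1alphaRNAi signal was thus 27.4% of the control signal, a 3.66-fold difference (log2 ratio -1.87). The difference was 5.76 times the SD between probe sets of a gene. That SD leaves out the spread between larvae, and SLC5A11 itself had 1 probe set, so the multiple is no measure of significance. Both signals stood clear of the tag controls, at 7.92 times the brightest one for Ck1alphaRNAi and 46.8 times for control. Among all 8686 detected genes, 115 (1.32%) had a log2 ratio as low or lower, SLC5A11 counted. At a mean signal of 500 to 1000, where SLC5A11 lay, 51 of 1755 genes (2.91%) were at least 2-fold lower, beside 188 of 1720 genes (10.9%) at 100 to 200. In RNA of whole larvae, fewer cells of a type and less RNA per cell cannot be told apart.

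**Figure D2:**
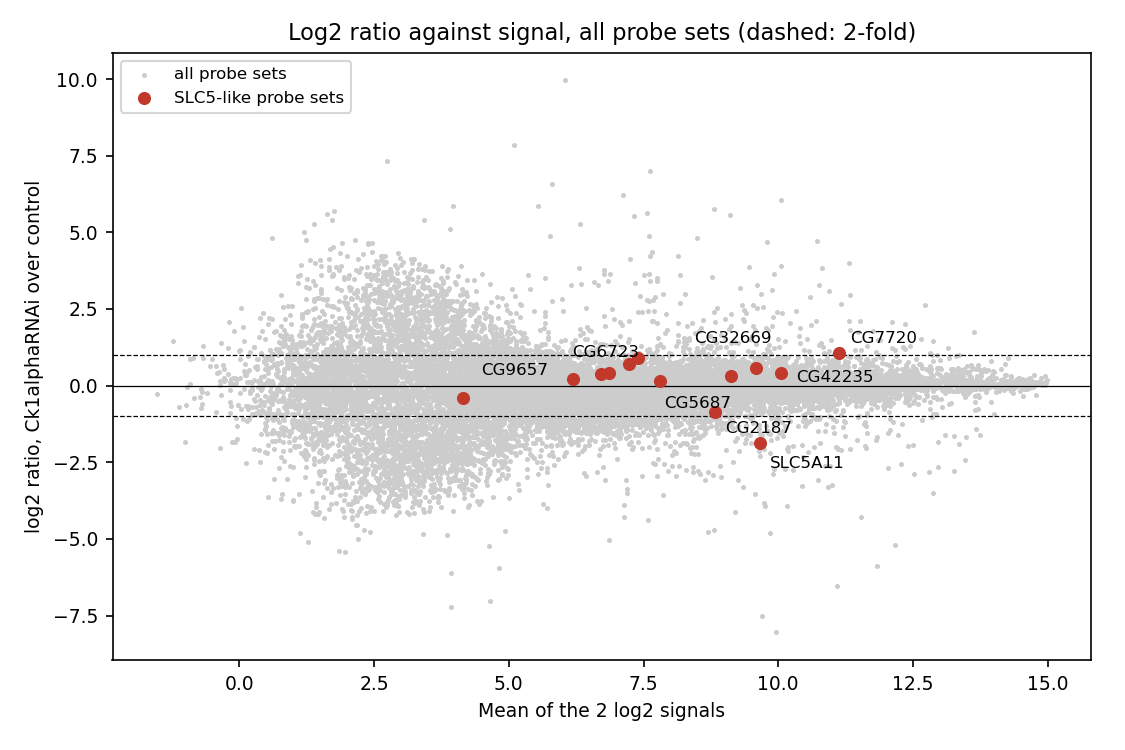
Log2 ratio of Ck1alphaRNAi over control (vertical axis) against the mean of both log2 signals (horizontal axis) for each of the 18952 probe sets in grey, with the 13 SLC5-like probe sets in red, the brightest of each gene named, and dashed lines at 2-fold. SLC5A11 lay at -1.87, among the 1.32% of detected genes with the lowest ratios, and CG7720 at 1.05.

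Neurons in general, not the ellipsoid body neurons in which SLC5A11 is known from adults, were represented by 8 marker genes. In RNA of whole larvae such markers cannot show a change limited to a few neurons. Which larval cells gave the SLC5A11 signal was not measured. Of the 8 markers, 7 had a probe set of their own and 4 were detected. None of these 4 was 2-fold higher or lower. Their log2 ratios ran from -0.26 for elav, which encodes a neuronal RNA-binding protein (signals of 439 after the knockdown and 526 in controls), to 0.26 for Snap25, which encodes a protein of synaptic vesicle fusion (454 and 378). The summed signal of the 7 measured neuronal markers was 2134 in Ck1alphaRNAi larvae and 1955 in controls, and none was at 0. KCNQ, the channel gene through which SLC5A11 acts in adult neurons, had the higher signal in Ck1alphaRNAi larvae, at 619 against 466 (log2 ratio 0.41). Fat body markers, in contrast, were far lower: 9 of 11 (8 of 11 after median centring) were at least 2-fold lower and none 2-fold higher. Their summed signal was 32906 against 158130. Most of the control sum came from the Lsp and Fbp genes, which also had the lowest ratios. The markers ranged from a log2 ratio of -8.05 for the storage protein gene Fbp2 to 0.06 for the desaturase gene Desat1. The other marker short of 2-fold, bmm, was at -0.63. What part the fat body transcripts had in the lower SLC5A11 signal was not tested, nor what part the stage of the larvae had in these markers.

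The detected gene directly beside SLC5A11 on 2L, PGAP5, had signals of 274 and 377 (log2 ratio -0.46), a smaller difference than that of SLC5A11. The gene on the other side, CG8419, was not detected.

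Of the glial transporter genes, CG42235 and CG6723 had higher signals in Ck1alphaRNAi larvae, each short of 2-fold, while CG9657 was not detected. CG42235 (kumpel) was measured by 5 probe sets, designed for transcripts that the current annotation joins into 1 gene. The brightest, for CG8934-RA, gave 1228 in Ck1alphaRNAi larvae and 928 in controls, a ratio of 1.32 (log2 ratio 0.41). The probe set for CG8957-RA gave 618 and 497. The highest ratio came from one of the 3 dimmer probe sets. Of these, CG31090-RA gave 228 and 124 (ratio 1.85), CG8966-RA 190 and 118 (ratio 1.61), and CG8932-RA 134 and 102 (ratio 1.32). All 5 of 5 probe sets were thus higher in Ck1alphaRNAi larvae, with a mean log2 ratio of 0.54 ± 0.24 (SD, n = 5 probe sets). The probe sets were read on the same 2 arrays, so their number is not a number of larval samples.

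CG6723 (bumpel) read 120 in Ck1alphaRNAi larvae against 92.0 in controls, a ratio of 1.31 (log2 ratio 0.38), which is 1.19 times the SD between probe sets of a gene. CG9657 (rumpel) gave 78.6 and 68.4, a ratio of 1.15. These were 1.47 and 2.07 times the brightest tag control of the respective array. The log2 ratio of 0.20 lay within the SD between probe sets, although that SD was taken from brighter probe sets. At this brightness a difference of CG9657 between the larvae was not detectable.

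Markers of glia were measured beside this trio. All 7 listed glial genes were detected, 1 of which, nrv2, is also counted below among the sodium pump genes. Only 1 was at least 2-fold lower and none 2-fold higher, and their median log2 ratio was 0.00. The lowest was Eaat1, which encodes a glutamate transporter of glia, at 1115 against 3127 in controls (log2 ratio -1.49). The highest was loco, a regulator of G protein signaling, at a log2 ratio of 0.24. The summed signal of the glial list was 15204 against 17358 in controls, and none was at 0. CG42235 and CG6723 thus had log2 ratios above the median of these markers, by an amount near the SD between probe sets. The difference was not tested, and CG9657 was not detected.

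CG7720 had the highest ratio of the members. Its bright probe set, for CG7720-RB, read 3241 in Ck1alphaRNAi larvae, 2.07-fold above the 1564 of the controls (log2 ratio 1.05). Of all detected genes, 214 (2.46%) had a log2 ratio as high or higher, and at a mean signal of 2000 to 5000, the range of CG7720, 31 of 815 genes (3.80%) were at least 2-fold higher. The probe set is of a type whose probes can match more than 1 transcript. The second CG7720 probe set, for the transcript CG31227-RA, gave 15.4 and 20.3, each below the brightest tag control of its array, and it gets no fold. The 2-fold difference of CG7720 thus rests on 1 probe set just past the threshold. Next to CG7720 on 3R, Epg5 gave 418 and 483 (log2 ratio -0.21), and Octalpha2R was not detected.

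CG2187 was the other member with a lower signal, at 335 in Ck1alphaRNAi larvae and 613 in controls. This was 1.83-fold lower (log2 ratio -0.87), short of 2-fold. The difference was 2.68 times the SD between probe sets of a gene, which leaves out the spread between larvae. Of the detected genes, 643 (7.40%) had a ratio as low or lower. CG32669 gave 943 and 632, a ratio of 1.49 (log2 ratio 0.58), with 613 genes (7.06%) as high or higher. CG5687 gave 234 and 212, a ratio of 1.11 (log2 ratio 0.15), which lay within the SD between probe sets. Among these 4 members known mainly by similarity, CG7720 therefore had the highest ratio and CG2187 the lowest.

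In the gene annotation deposited with the arrays, 7 genes carried the term sodium:iodide symporter activity and 5 the term sodium-dependent multivitamin transmembrane transporter activity, both by sequence similarity for most of them. The iodide group held CG2187, CG5687, CG7720, CG6723, CG42235 and CG9657, together with the non-member salt. The vitamin group held SLC5A11, CG32669 and CG42235, together with the non-members CG10444 and Smvt. Their median log2 ratios were 0.20 and 0.16, and each group held both genes with clearly lower and genes with higher signals. Members of both directions thus shared a predicted solute.

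With SLC5A11 counted by its symbol and the others by a family name in the reference annotation, the SLC5 family held 15 fly genes. All had a probe set, and 13 were detected. Over these 13 the median log2 ratio was -0.17, but 0.08 after median centring, which raised every log2 ratio by 0.25. Under both, 1 gene was higher by 2-fold or more and 2 genes were lower. The 6 detected family genes outside the members had a median of -0.20 (0.05 after median centring), and 1 of 6 was at least 2-fold lower. This was salt, a gene linked to the response of larvae to a salty diet, at 710 against 1816 in controls, 2.56-fold lower (log2 ratio -1.36). The choline transporter gene ChT, which supplies choline for acetylcholine synthesis in neurons, gave 140 and 158. CG31262 gave 141 and 205 (log2 ratio -0.54), CG33124 128 and 150, and CG10444 787 and 888. Of these 6 relatives only Smvt, named for the vitamin transporter of mammals, had the higher signal in Ck1alphaRNAi larvae, at 1143 against 1020 (log2 ratio 0.16), whereas after median centring 4 of 6 did, ChT, CG33124 and CG10444 included. Median centring moved the median of all detected genes alike, from -0.01 to 0.24. CG31668 was not detected.

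**Figure D3:**
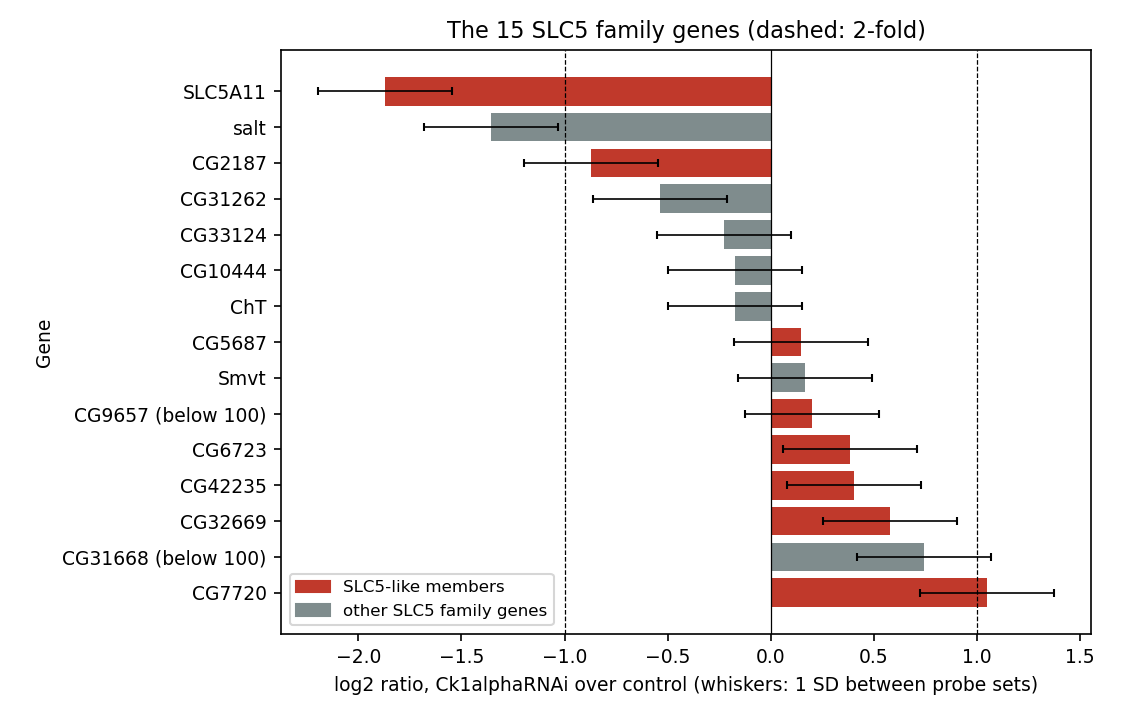
Log2 ratio of Ck1alphaRNAi over control for the 15 SLC5 family genes, ordered by ratio, with the 8 members in red and the other family genes in grey, where whiskers show 1 SD between probe sets of a gene (0.32) and dashed lines 2-fold. SLC5A11 at -1.87 and salt at -1.36 lay below 2-fold lower and CG7720 at 1.05 above 2-fold higher, while the 2 genes marked as below 100 were not detected. The whiskers leave out the spread between larvae. They come from detected probe sets only, so they do not describe the 2 genes below 100.

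CG2187 and salt, both with the lower signal in Ck1alphaRNAi larvae, are neighbouring genes. In the reference annotation salt, CG2187 and Smvt follow each other on 3R, with 0 protein-coding genes between them. Along this row the log2 ratio was -1.36 for salt, -0.87 for CG2187 and 0.16 for Smvt. The gene outside salt, CG1910, gave 965 and 1344 (log2 ratio -0.48), and the gene outside Smvt, CG2150, was not detected. Smvt thus did not share the lower signal of salt and CG2187, and its log2 ratio lay within the SD between probe sets. Whether the probes of these adjacent genes share target sequence was not examined. No other member had a family gene directly beside it.

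Other transporter genes were measured for comparison. The genes of the sodium pump, which provides the gradient for SLC5 transport, lay within 2-fold: 4 of 5 measured were detected, with log2 ratios from -0.00 for the beta subunit gene nrv1 to 0.25 for the alpha subunit gene Atpalpha (2662 in Ck1alphaRNAi larvae and 2241 in controls). Of the SLC6 transporter genes, another sodium-coupled family, 9 of 15 were detected and none differed by 2-fold. The log2 ratios had a median of -0.01, with a range from -0.32 for blot to 0.64 for the amino acid transporter gene NAAT1. The facilitative sugar transporters, which need no sodium, held the widest differences. Of 8 detected genes 1 was higher by more than 2-fold, the sugar transporter-like gene CG1208 at a log2 ratio of 3.92, and 1 at least 2-fold lower, the trehalose transporter gene Tret1-1 at -1.66. Among 7 detected monocarboxylate transporter genes, CG8389 was at least 2-fold lower, at 383 against 832 (short of 2-fold after median centring), and none was 2-fold higher. In size, the log2 ratio of SLC5A11 exceeded that of every detected gene in these transporter lists except CG1208.

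**Figure D4:**
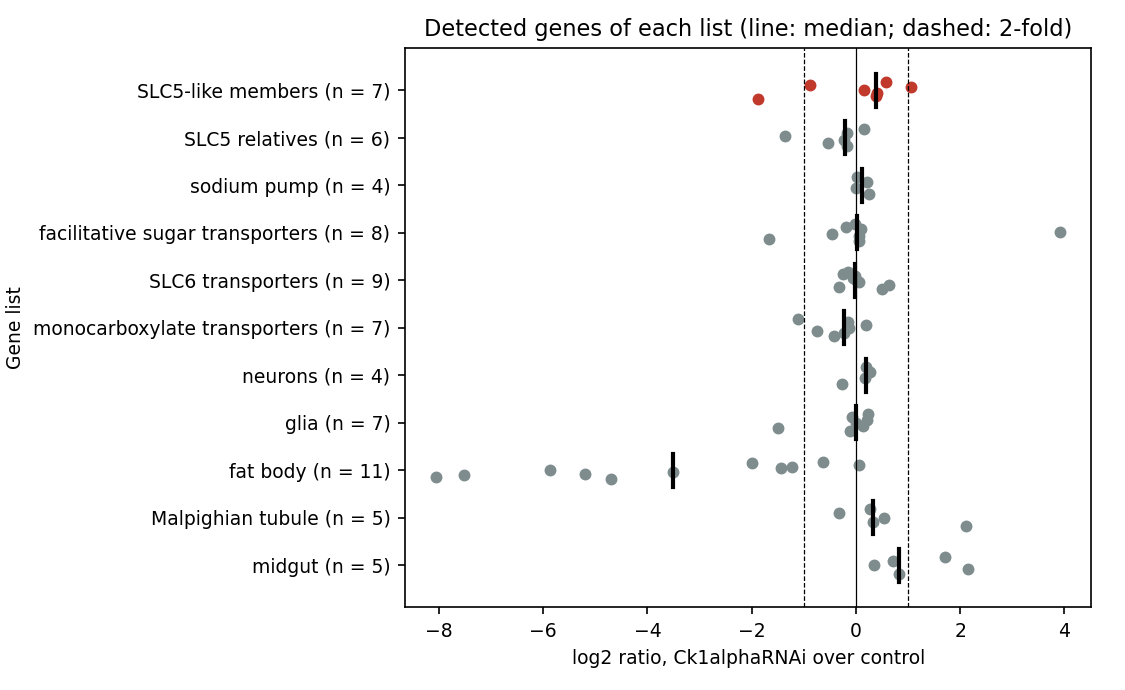
Log2 ratio of Ck1alphaRNAi over control for each detected gene (points) of the SLC5-like members and of the lists set beside them, with the median of each list as a vertical bar, dashed lines at 2-fold and n the number of detected genes. The members spread from -1.87 to 1.05 around a median of 0.38 (0.28 for those with at least 100 on both arrays), the sodium pump genes lay near 0, and the fat body markers reached -8.05.

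Marker genes of the absorbing and excreting organs, where transporters of this kind also occur, mostly had higher signals in Ck1alphaRNAi larvae. All 5 midgut markers were higher, 2 of them at least 2-fold, with a summed signal of 54931 against 35512 in controls and log2 ratios from 0.35 for the trypsin gene alphaTry to 2.16 for Npc1b, a gene of sterol uptake. Of 5 Malpighian tubule markers 4 were higher, 1 of them at least 2-fold, with a summed signal of 7406 against 2915. The tubule markers ran from a log2 ratio of -0.32 for the zinc transporter gene ZnT35C to 2.12 for Uro, the urate oxidase gene (5281 and 1218). Most of the Ck1alphaRNAi sum thus came from Uro alone. The median log2 ratio of the 5 tubule markers was 0.33, near the SD between probe sets of a gene. No marker of either organ was at 0. In direction alone, the detected members CG7720, CG32669, CG42235, CG6723 and CG5687 were higher like most of these markers. SLC5A11, CG2187 and the relative salt were lower. Of all 8686 detected genes 4227 were higher, so a shared direction does not assign a gene to an organ. The part of either organ in any of these values was not tested.

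Apart from CG7720, the directions of the members held under 7 other ways of treating the signals, not all of which could change them. Over these, the log2 ratio of SLC5A11 ran from -1.88 to -1.62, so that it was at least 2-fold lower under each. That of CG2187 ran from -0.87 to -0.62, those of CG9657 from 0.16 to 0.56, of CG42235 from 0.38 to 0.66, of CG32669 from 0.57 to 0.83, of CG6723 from 0.33 to 0.64 and of CG5687 from 0.14 to 0.40. CG7720 ran from -0.40 to 1.30. Its negative value came from its dim probe set alone, which lies below the tag controls.

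**Figure D5:**
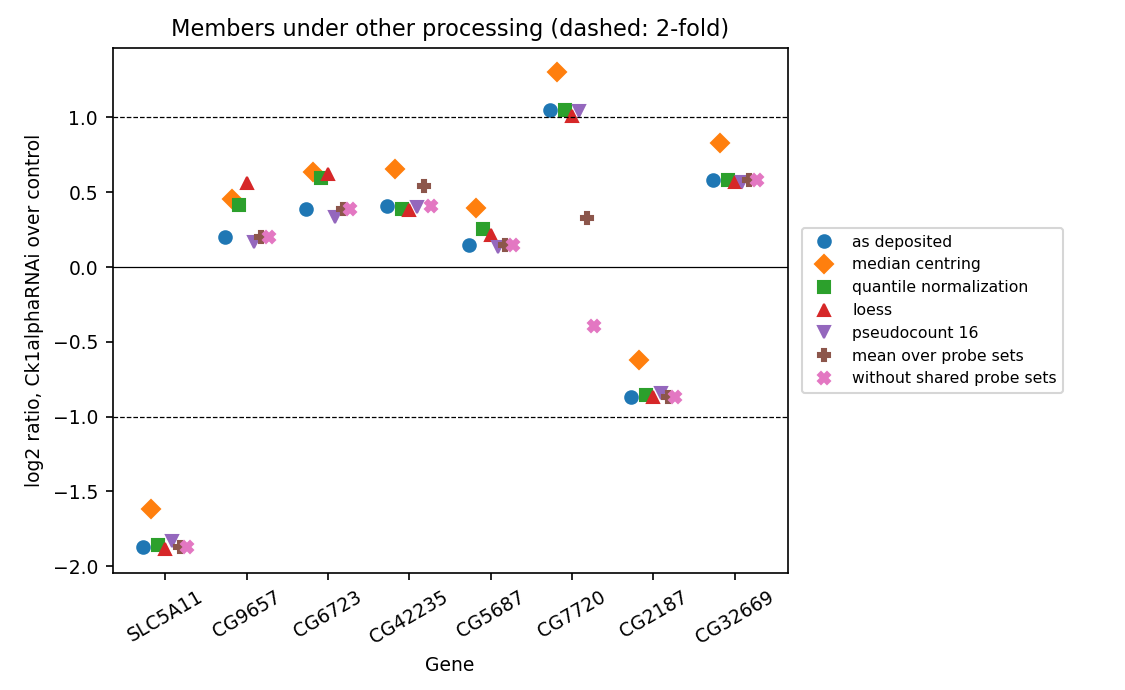
Log2 ratio of Ck1alphaRNAi over control for each of the 8 members as reported and under 6 alternatives of scaling, pseudocount and choice of probe set, with dashed lines at 2-fold (the second table, whose values are the same, is not drawn). SLC5A11 lay between -1.88 and -1.62 throughout, and CG7720 alone changed sign, at -0.40 when its bright probe set was left out.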

How the data were processed

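Total RNA of whole larvae was hybridised to Affymetrix Drosophila 2 arrays, 1 for Ck1alphaRNAi and 1 for control larvae. The labels name Trizol for the extraction and the methods an RNA extraction kit. The authors deposited MAS5 signal intensity values on a linear scale for 18952 probe sets (MAS5 version 5, per the submitters' processing notes). Another deposited table repeats these intensity values (largest relative difference 2.2e-16). A column of the authors' fold change was not used. Both arrays had a mean of 500 after trimming 2% at either end. Signals of at least 100 made up 49.7% (Ck1alphaRNAi) and 52.0% (control). Scanner files and detection calls were not used here, and the sources name neither a scaling target nor a genome build. The number of arrays limits the precision. The label of sex was not checked.

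Probe sets were named from the deposited symbols and a RefSeq gene table (Release 6 plus ISO1 MT), used for names, chromosome arms and gene order only: 14419 had 1 gene, 578 several and 3955 none. The probe set of highest mean signal stood for a gene, a gene was detected at a mean signal of at least 100, and log2 ratios were taken without a pseudocount. No test was possible with 1 array per group, and called means at least 2-fold. Where both signals lay below the brightest tag control, no fold is given. The scripts were tested on simulated data. Named are all members, Ck1alpha, and the highest and lowest detected gene of each list. The rule also named the 5 genes nearest to SLC5A11 in signal, which are not reported, since signals of different probe sets depend on their probes. The other SLC5 family genes and the neighbouring genes were named after their values were seen, as was Smvt, added to the list of relatives. Of that list, CG31090 is CG42235 in the current annotation and was counted as a member. The members and lists were chosen with earlier results of these data known. The alternatives tried were quantile normalization, median centring, loess, 16 added to both signals as a pseudocount, the second table, the mean over probe sets, leaving out shared probe sets, and other filters. The ranges of mean signal and the gene order were added after seeing the data. Python 3.11.15, numpy 2.4.6, pandas 2.3.3, statsmodels 0.14.6 and matplotlib 3.10.9 were used.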

Additional observations from a re-analysis of the deposited data

How the results depend on the processing

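No paired analysis was possible because each genotype had 1 array, and no array could be left out. Over the alternatives, 84 values stayed near those reported, 9 moved and 1 reversed. Part of those that stayed could not differ, so the tally is not a measure of robustness. The second table repeats the values, and the choices of probe set leave a member with 1 probe set as it was. The count of members at least 2-fold lower was 1 under each alternative. The count at least 2-fold higher fell to 0 with the mean over probe sets (CG7720 at a log2 ratio of 0.33) and to 0 without shared probe sets, where CG7720 turned to -0.40, a value from its dim probe set below the tag controls. Loess put CG9657 at 0.56, although this gene lay below the signals on which the loess was fitted. Median centring raised the median log2 ratio of all detected genes from -0.01 to 0.24 and that of the members from 0.38 to 0.64, and gave 297 genes at least 2-fold lower and 399 higher, a share of higher genes of 57.3% among those changed, against 31.2% as reported. It adds 0.25 to every log2 ratio, so the order of the members stayed as reported. With at least 100 on both arrays, 329 genes were at least 2-fold lower and the median of the members was 0.28. Without a filter, 1377 were lower and 732 higher, every added gene having a mean signal below 100. Signal over background limits CG9657, CG6723 and the second CG7720 probe set, and for all members the single array per genotype is the main limit.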
